A study of Mus musculus with 7 samples.

Results

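Heat shock chaperones of the cytosol and mitochondria keep other proteins folded. The 40 genes described here encode the Hsp70, Hsp110, Hsp90, Hsp60 and small heat shock proteins that work outside the endoplasmic reticulum (ER), their J-domain partners and co-chaperones, and the heat shock factors Hsf1 and Hsf2. They were taken by gene symbol from a table of 24346 genes, and all 40 were found. The measurement was bulk RNA-seq of the cerebral cortex at postnatal day 100 in male mice on the C57BL/6J background. There were 4 CrT-/y animals, hemizygous for a deletion of exons 5 to 7 of Slc6a8, and 3 wild-type CrT+/y littermates, with 1 library each. Slc6a8 is the X-linked gene for the creatine transporter CrT, which carries creatine into cells, and its deletion here is present in every cell type. The labels give no treatment for either group.

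Hsp70 proteins bind exposed hydrophobic stretches of a client protein in a cycle of ATP binding and hydrolysis that J-domain proteins start and Hsp110 proteins reset by exchanging the nucleotide. Clients such as kinases and steroid receptors are then handed to Hsp90, whose own ATP cycle is set by a series of co-chaperones, while Hsp60 and its lid Hsp10 fold proteins inside mitochondria. Hsf1 is the transcription factor that raises many of these genes when unfolded proteins accumulate, by binding repeats of the bases GAA and TTC in their promoters. Neurons express Hspa8, Hsp90aa1 and Hsp90ab1 at high levels even without stress.

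The deposited values are FPKM, fragments scaled by transcript length and by the mapped total of the library. Per-animal values are given in the order of replicates 0 to 3 for CrT-/y and 1 to 3 for CrT+/y. Slc6a8 itself measured 12.4, 14.9, 14.7 and 15.7 FPKM in CrT-/y and 32.3, 29.6 and 28.05 FPKM in CrT+/y cortex, so the groups did not overlap and the labels held in every library. The deletion removes part of the gene, and the values cover all of it. Between 17207 and 17821 genes were above 0 FPKM per library. The table holds no read totals, the study's separate list of reads per replicate was not used here, and FPKM alone cannot separate fewer cells of a type from less RNA per cell. The cortical neuron markers Slc17a7 (542 to 670 FPKM) and Camk2a (794 to 1030 FPKM) were high in all 7 animals. The markers of striatum summed to between 52.5 FPKM in CrT+/y replicate 1 and 235 FPKM in CrT-/y replicate 1, and those of choroid plexus and ependyma to 390.2 FPKM in CrT+/y replicate 2 against 4.18 to 51.6 FPKM in the other animals. The part of these differences in the results was not tested.

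Many of the chaperone genes were lower without CrT, and none was higher. Of the 40 genes, 19 were lower in CrT-/y cortex and 0 were higher (limma on log2(FPKM + 0.1), Benjamini-Hochberg adjusted p below 0.1 over the 12988 genes that averaged 1 FPKM or more, all 40 among them). Over all genes tested, 941 (7.25%) were called lower and 377 (2.9%) higher, 10.1% in either direction. The median log2 fold change was -0.22 over the 40 genes and -0.03 over all genes tested, and 34 of the 40 lay below 0 against 58.2% of all genes. The highest CrT-/y value lay under the lowest CrT+/y value for 21 of the 40 genes, which are the 19 called plus Hsp90aa1 and Cdc37, against 15% of all genes. The opposite order was seen for 0 of the 40 and for 6.57% of all genes. At an unadjusted limma p below 0.05 there were 26 lower and 0 higher. The changes were moderate in size, with levels of the 19 called genes at 58.1% to 87.6% of the CrT+/y mean.

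**Figure D1:**
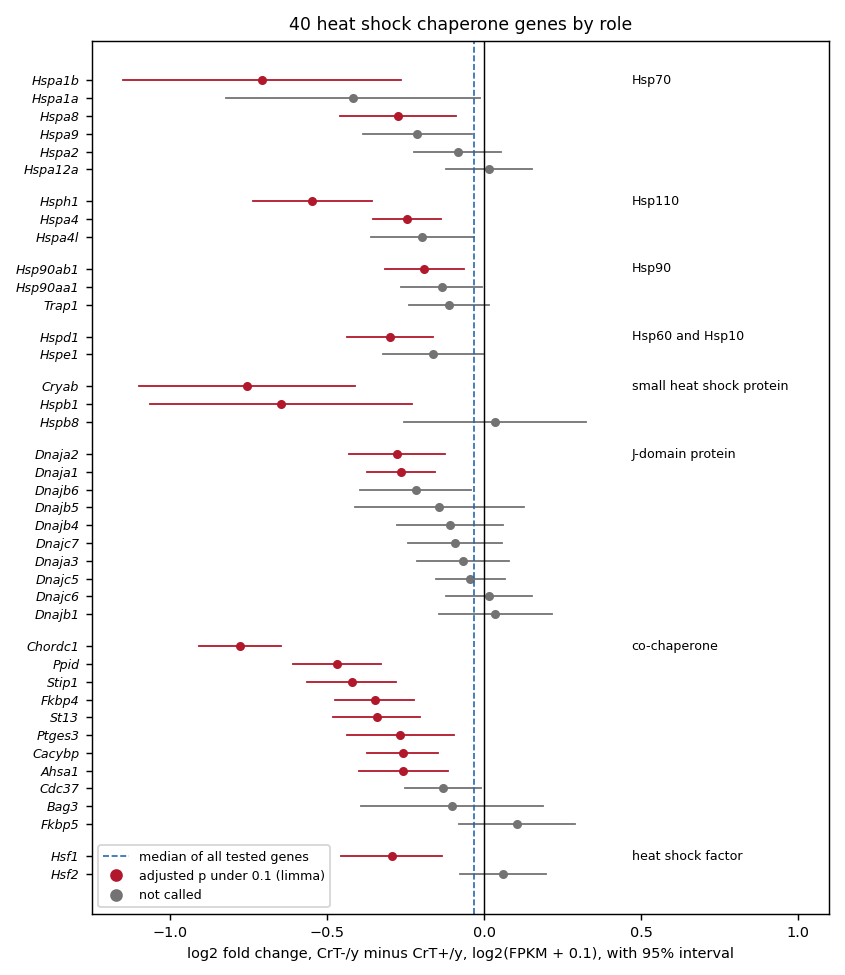
Log2 fold change of each of the 40 chaperone genes, CrT-/y minus CrT+/y on the log2(FPKM + 0.1) scale, with its 95% interval from limma, grouped by role. The 19 genes called lower are marked apart from the 21 not called, and their values run from -0.78 (Chordc1) to -0.19 (Hsp90ab1).

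The number of calls rested in part on single animals. It was 4, 8 and 10 when CrT-/y replicate 1, 2 or 3 was left out in turn, and 12 when CrT+/y replicate 1 was, while none of the 40 was called higher under any of these. The share of all genes called lower fell in the same settings, from 7.25% to 0.408%, 1.28%, 1.96% and 1.29%, respectively. When the animals were brought to a common distribution by quantile normalization, 16 of the 40 were lower, and 14 were lower after upper quartile scaling or median centring. The same scalings moved the split of all calls from 941 lower and 377 higher to 555 and 528, 463 and 741, and 527 and 490, respectively. Chordc1, Hsph1, Stip1 and Ppid were called lower in each of the 20 alternative settings tried, and no called gene had a fold change above 0 in any of them.

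The co-chaperones that serve Hsp90 and Hsp70 held 8 of the 19 calls. Of 11 measured, 8 were lower, and the median fold change was -0.27 on the log2 scale. Chordc1, a zinc-binding protein that associates with Hsp90, was, with Cryab and Hspa1b, among the genes with the largest fold changes, and their order varied with the setting and the animals kept. It measured 19.8, 19.1, 20.0 and 19.7 FPKM in CrT-/y and 33.0, 36.3 and 32.1 FPKM in CrT+/y cortex. The CrT-/y values lay within 1 FPKM of each other and far below the lowest wild-type animal. Its level was 19.6 ± 0.395 FPKM (SD, n = 4) against 33.8 ± 2.20 FPKM (SD, n = 3), a log2 fold change of -0.78 (SE 0.058, limma adjusted p = 0.00238). Chordc1 lies at chr9:18292125-18317442 on the plus strand (GRCm38, GENCODE).

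Stip1, the adaptor that holds Hsp70 and Hsp90 together for client transfer, measured 55.4, 49.5, 55.3 and 54.5 FPKM in CrT-/y and 68.0, 71.5 and 76.4 FPKM in CrT+/y cortex, a log2 fold change of -0.42 (SE 0.063, limma adjusted p = 0.0253). Ppid, a cyclophilin with peptidyl-prolyl isomerase activity that docks on Hsp90, measured 37.6, 34.1, 36.1 and 34.6 FPKM against 51.0, 51.3 and 45.7 FPKM, a log2 fold change of -0.47 (SE 0.062, limma adjusted p = 0.0176). Both genes showed a clear gap between the genotypes. Fkbp4, an immunophilin of steroid receptor complexes, measured 43.5, 39.1, 42.3 and 40.8 FPKM against 53.5, 50.7 and 54.0 FPKM (log2 fold change -0.35, SE 0.056, limma adjusted p = 0.0253). St13, which stabilises the client-bound state of Hsp70, measured 71.6, 67.3, 65.5 and 66.7 FPKM against 90.6, 88.3 and 79.4 FPKM (log2 fold change -0.34, SE 0.062, limma adjusted p = 0.0322). In both, CrT-/y replicate 0 was the highest of its group and still below the lowest CrT+/y animal.

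The remaining 3 called co-chaperones changed less. Ptges3, the p23 protein that stabilises the closed form of Hsp90, measured 78.1, 65.3, 70.0 and 62.9 FPKM in CrT-/y and 85.3, 81.8 and 81.6 FPKM in CrT+/y animals (log2 fold change -0.27, limma adjusted p = 0.0798). Ahsa1, an activator of the Hsp90 ATPase, measured 60.1, 55.3, 55.2 and 59.8 FPKM against 68.8, 64.5 and 73.5 FPKM (log2 fold change -0.26, limma adjusted p = 0.0586). Cacybp, a partner of Hsp90 and of a ubiquitin ligase, measured 33.9, 31.3, 33.3 and 32.1 FPKM against 39.0, 39.5 and 38.7 FPKM (log2 fold change -0.26, limma adjusted p = 0.0371). The wild-type values of Cacybp spread by less than 1 FPKM, whereas CrT-/y replicate 0 brought Ptges3 close to the wild-type range. Ptges3 kept its call in 9 of the 20 alternatives and lost it under all 3 scalings (limma adjusted p of 0.122 to 0.143). The 3 co-chaperones not called were Cdc37, which brings kinases to Hsp90 (log2 fold change -0.13, 95% interval -0.25 to -0.01), Bag3, a nucleotide exchange factor that links Hsp70 to autophagy (-0.10, -0.39 to 0.19), and Fkbp5, an immunophilin induced by glucocorticoids (0.10, -0.08 to 0.29).

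**Figure D2:**
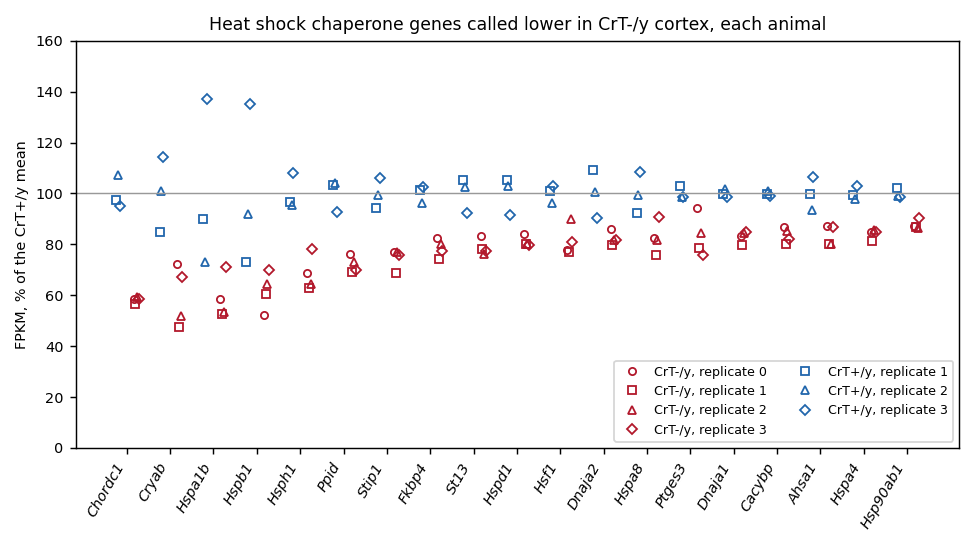
FPKM of each of the 7 animals as a percentage of the CrT+/y mean, for the 19 chaperone genes called lower, with the genotypes in separate symbols. No CrT-/y point reaches the lowest CrT+/y point of the same gene, and the spread among wild-type animals is widest for Hspb1 and Hspa1b.

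Of the 3 Hsp90 genes, 1 was lower. Hsp90ab1, the constitutive cytosolic form, measured 596, 591, 589 and 618 FPKM in CrT-/y and 698, 677 and 673 FPKM in CrT+/y cortex (log2 fold change -0.19, SE 0.056, limma adjusted p = 0.0869). The groups were well apart, but the gene kept its call in only 7 of the 20 alternatives. Hsp90aa1, the stress-responsive form, measured 377, 396, 374 and 401 FPKM against 419, 413 and 443 FPKM and was not called (log2 fold change -0.14, 95% interval -0.27 to -0.01, limma adjusted p = 0.186), although its groups did not overlap. Trap1, the mitochondrial Hsp90, was not called either (-0.11, 95% interval -0.24 to 0.02).

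Hspa8, the constitutive Hsp70 of the cytosol, was the most abundant of the 40 genes. It measured 761, 699, 752 and 835 FPKM in CrT-/y and 851, 916 and 998 FPKM in CrT+/y cortex (log2 fold change -0.28, SE 0.083, limma adjusted p = 0.0923). The highest CrT-/y animal, replicate 3, came close to the lowest CrT+/y animal, and the call was kept in 6 of the 20 alternatives. The Hsp110 proteins, which recharge Hsp70 and dissolve aggregates with it, were lower in 2 of 3 cases. Hsph1 measured 74.2, 67.5, 69.4 and 84.3 FPKM against 104, 103 and 117 FPKM (log2 fold change -0.55, SE 0.084, limma adjusted p = 0.0253). Hspa4 measured 55.9, 53.6, 56.5 and 55.8 FPKM against 65.5, 64.4 and 67.7 FPKM (log2 fold change -0.25, SE 0.048, limma adjusted p = 0.0371). Both had a clear gap between genotypes, wider for Hsph1 than for Hspa4. Hspa4l was not called (-0.20, 95% interval -0.36 to -0.03), and its lowest wild-type animal lay inside the CrT-/y range.

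Hspa1a and Hspa1b encode the classical heat-inducible Hsp70 from neighbouring intronless copies on chromosome 17, at chr17:34969190-34972156 and chr17:34956436-34959238, both on the minus strand with 9951 bases between them. Hspa1b measured 3.21, 2.89, 2.94 and 3.91 FPKM in CrT-/y and 4.95, 4.01 and 7.54 FPKM in CrT+/y animals (log2 fold change -0.71, SE 0.196, limma adjusted p = 0.0771). Hspa1a measured 3.86, 3.05, 3.49 and 4.76 FPKM against 5.45, 3.84 and 6.07 FPKM and was not called (log2 fold change -0.42, 95% interval -0.82 to -0.01). For both genes CrT+/y replicate 3 was the highest and CrT+/y replicate 2 the lowest wild-type animal, and the groups overlapped for Hspa1a. Without CrT+/y replicate 3 the log2 fold change of Hspa1b was -0.46, and its call was kept in 11 of the 19 alternatives that tested it. The assignment of reads between the copies is uncertain, since 49.9% of the stretches of 100 bases in the Hspa1b transcript and 48.6% of those in Hspa1a occur in another gene. Their summed level was therefore compared too. It was 7.07, 5.94, 6.44 and 8.67 FPKM against 10.4, 7.86 and 13.6 FPKM, a difference of -0.57 on the log2 scale. A two-sided exact permutation test gave p = 0.114. With groups of this size that test cannot reach a p below 0.05, so it does not decide whether the sum differed. Without CrT+/y replicate 3 the difference was -0.37. That animal also had the highest summed blood markers, 72.5 FPKM against 21.1 to 45.1 FPKM in the other animals, and the part of blood in these values was not tested.

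Of the other Hsp70 genes, Hspa9, the mitochondrial Hsp70 also called mortalin, lay at 76.6 to 84.1 FPKM in CrT-/y and 83.7 to 105 FPKM in CrT+/y cortex (log2 fold change -0.21, 95% interval -0.39 to -0.04) and was not called. Hspa2, best known from male germ cells, and the divergent Hspa12a were not called, with values of -0.08 (95% interval -0.22 to 0.05) and 0.02 (-0.12 to 0.15).

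The mitochondrial chaperonin was lower in its Hsp60 part. Hspd1, which encodes Hsp60, measured 75.0, 71.6, 71.7 and 71.4 FPKM in CrT-/y and 94.3, 92.1 and 81.8 FPKM in CrT+/y cortex (log2 fold change -0.30, SE 0.061, limma adjusted p = 0.0395). The CrT-/y animals lay close together, and the wild-type spread came from replicate 3. Hspe1, its co-chaperonin Hsp10, measured 66.8, 58.4, 61.2 and 63.9 FPKM against 71.9, 63.8 and 74.8 FPKM, with overlapping groups and no call (log2 fold change -0.16, 95% interval -0.32 to -0.003). The genes stand head to head on chromosome 1, Hspd1 on the minus strand at chr1:55077835-55088243 and Hspe1 on the plus strand at chr1:55088132-55091307. The annotated genes share 112 bases, and without strand in the counting their reads there cannot be told apart. Of the 5 mitochondrial members (Hspd1, Hspe1, Hspa9, Trap1 and Dnaja3), Hspd1 alone was called, and all 5 had fold changes below 0, at a median of -0.16.

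Small heat shock proteins hold unfolded clients without using ATP. Cryab, alpha-B crystallin, which in brain is made mainly by oligodendrocytes and astrocytes, measured 70.6, 46.7, 50.6 and 65.6 FPKM in CrT-/y and 83.1, 98.8 and 112 FPKM in CrT+/y cortex (log2 fold change -0.76, SE 0.152, limma adjusted p = 0.0395). Hspb1, known as Hsp25 in the mouse, measured 5.08, 5.91, 6.31 and 6.84 FPKM against 7.12, 8.97 and 13.2 FPKM (log2 fold change -0.65, SE 0.186, limma adjusted p = 0.0831). Neither gene overlapped between groups, but Hspb1 came close to doing so, and CrT+/y replicate 3 was the highest animal for both. Without that animal the log2 fold change of Hspb1 was -0.41, and its call was kept in 10 of the 20 alternatives. Hspb8, which works with Bag3, was not called (0.03, 95% interval -0.26 to 0.33). The 5 oligodendrocyte markers Mbp, Mog, Mag, Cnp and Mobp summed to 641 to 983 FPKM in CrT-/y and 914 to 1164 FPKM in CrT+/y animals, and 0 of the 5 were called by limma in either direction (0 at an unadjusted p below 0.05), with a median log2 fold change of -0.17. By animal, the oligodendrocyte sum was 983, 962, 880 and 641 FPKM in CrT-/y and 914, 1164 and 993 FPKM in CrT+/y cortex. The 5 astrocyte markers summed to 330 to 384 FPKM against 336 to 393 FPKM. The part of cell composition in the Cryab difference was not tested.

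J-domain proteins, which deliver clients to Hsp70 and trigger its ATPase, were lower in 2 of 10 cases. These were the class A proteins Dnaja1 and Dnaja2. Dnaja1 measured 54.3, 52.2, 55.2 and 55.5 FPKM in CrT-/y and 65.1, 66.5 and 64.3 FPKM in CrT+/y cortex (log2 fold change -0.27, SE 0.048, limma adjusted p = 0.0324). Dnaja2 measured 71.5, 66.2, 68.0 and 68.0 FPKM against 90.8, 83.6 and 75.3 FPKM (log2 fold change -0.28, SE 0.068, limma adjusted p = 0.0588). The separation was even across animals for Dnaja1, whereas wild-type replicate 3 lay near the CrT-/y animals for Dnaja2. Dnaja2 kept its call in 13 of the 20 alternatives. The 8 not called had log2 fold changes from -0.22 to 0.04. Among them were Dnajb6 (-0.22, 95% interval -0.40 to -0.04), a suppressor of polyglutamine aggregation, and Dnajb1 (0.04, -0.14 to 0.21), the main heat-inducible class B protein. The others were Dnajb5 (-0.14), Dnajb4 (-0.11), Dnajc7 (-0.09), the mitochondrial Dnaja3 (-0.07), and 2 proteins of the nerve terminal, the synaptic vesicle protein Dnajc5 (-0.04, 95% interval -0.15 to 0.06) and the clathrin-uncoating auxilin Dnajc6 (0.02, -0.12 to 0.15).

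The transcript of Hsf1, the main activator of the heat shock response, was lower as well. It measured 10.0, 9.94, 11.6 and 10.4 FPKM in CrT-/y and 13.0, 12.4 and 13.2 FPKM in CrT+/y animals (log2 fold change -0.30, SE 0.071, limma adjusted p = 0.0579). The groups were separate, with CrT-/y replicate 2 nearest to the wild-type range, and Hsf1 kept its call in 14 of the 20 alternatives. Hsf2, a related factor with developmental roles, was not called (0.06, 95% interval -0.08 to 0.20).

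Taken by how they are regulated, the 17 members listed here as raised by heat through Hsf1 held 11 of the calls, and their median fold change was -0.30 (log2). The other 23 held 8, with a median of -0.13. The 6 heat-inducible genes not called were Hspa1a, Hspa4l, Hsp90aa1, Hspe1, Dnajb1 and Bag3. Of 4 targets of Hsf1 that are not chaperones of the cytosol (Ubb, Serpinh1, Ier5 and Dedd2), limma called Ier5 lower (log2 fold change -0.26, adjusted p = 0.0674) and none higher (0 at an unadjusted p below 0.05), and their median was -0.10. The list of heat-inducible genes was chosen with earlier results of these data known, and other lists would move genes between the sets. The difference between the heat-inducible genes and the rest was not tested.

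Added over all 40 genes, the chaperone transcripts came to 3382, 3234, 3311 and 3460 FPKM in CrT-/y and 3882, 3900 and 4028 FPKM in CrT+/y cortex. The CrT-/y mean was 85.0% of the CrT+/y mean, with no overlap of the groups. Hspa8, Hsp90ab1 and Hsp90aa1 together made up between 50.7% and 53.6% of this sum in every animal. Without these 3 the sum was 1548 to 1649 FPKM against 1894 to 1914 FPKM. The 40 genes took between 0.843% and 0.894% of all FPKM in CrT-/y and between 0.962% and 1.01% in CrT+/y libraries.

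Animals of one genotype did not share a single order across genes. Among the 19 called genes, CrT-/y replicate 1 was the lowest of its group in 13, and CrT-/y replicate 0 was the highest in 10. Among wild-type animals replicate 3 was the highest in 10 and the lowest in 9. It was the highest for genes such as Cryab, Hspb1, Hspa1b, Hsph1, Hspa8 and Stip1 and the lowest for genes such as Hspd1, Dnaja2, St13, Ppid and Chordc1, and in both sets the groups did not overlap.

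**Figure D3:**
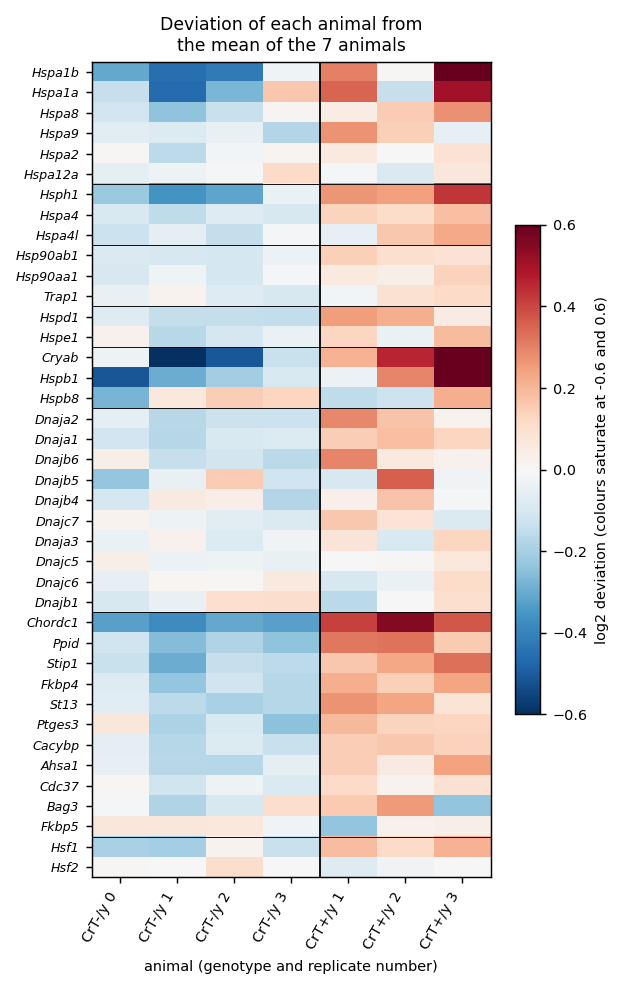
Heat map of the 40 chaperone genes (rows, grouped by role) in the 7 animals (columns), as the log2 deviation from the mean of all 7, with colours saturating at -0.6 and 0.6. Most rows are below the mean in the 4 CrT-/y columns, and CrT+/y replicate 3 holds both the strongest positive deviations and several values near the mean.

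Promoter windows of 300 bases (250 before to 50 after a transcription start, RefSeq, GRCm38.p6) were found for 31 of the 40 genes. Hspa8, Hspa9, Hsp90aa1, Hsp90ab1, Cryab, Dnajc5, St13, Ppid and Hsf1 had no entry. The windows were searched on both strands for the 3-unit heat shock motif, spelled GAANNTTCNNGAA or TTCNNGAANNTTC, where N is any base, and for its 2-unit core GAANNTTC or TTCNNGAA, which is contained in every 3-unit match. Stretches around the matches are printed 5′ to 3′ along the gene's strand, with the matches in capitals, for 4 of the 5 genes that hold the 3-unit motif, the uncalled Dnajb6 among them. Positions count from the RefSeq start, which can differ from the GENCODE start.
Chordc1, chr9:18292207-18292290, plus strand: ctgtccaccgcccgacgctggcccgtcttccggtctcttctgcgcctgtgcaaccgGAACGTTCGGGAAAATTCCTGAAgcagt
Hsph1, chr5:149636288-149636390, minus strand: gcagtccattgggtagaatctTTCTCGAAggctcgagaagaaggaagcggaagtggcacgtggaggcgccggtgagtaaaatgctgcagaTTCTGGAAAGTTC
Hspd1, chr1:55087933-55088132, minus strand: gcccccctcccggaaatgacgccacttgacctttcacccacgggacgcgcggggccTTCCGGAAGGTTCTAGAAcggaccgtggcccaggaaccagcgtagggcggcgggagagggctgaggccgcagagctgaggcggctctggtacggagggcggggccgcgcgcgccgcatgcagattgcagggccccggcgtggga
Dnajb6, chr5:29735798-29735897, plus strand: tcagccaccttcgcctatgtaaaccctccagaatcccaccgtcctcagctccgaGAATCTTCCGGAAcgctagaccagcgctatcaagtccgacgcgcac

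A 3-unit match was present in 5 of the 31 genes (16.1%), which were Chordc1, Hsph1, Hspd1, Hspe1 and Dnajb6, against 179 of all 27025 genes with a window (0.662%). The 3-unit match was held by 3 of the 13 called genes with a window and by 2 of the 18 not called. Hspe1 matches through the same stretch as Hspd1, read on the other strand, since the genes share this promoter. Matches were thus present both in genes that were lower, such as Chordc1, and in genes that were not called, such as Dnajb6. The 2-unit core was present in 14 of the 31 genes (45.2%), 7 of the 13 called and 7 of the 18 not called. It was present in 17.0% of all genes with a window and in 13.8% of those tested in the fit. A match is only a description of the letters.

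The heat-inducible genes Hspa1a, Hspa1b and Hspb1 and the co-chaperone Fkbp4 held the 2-unit core. The Hspa1a and Hspa1b stretches are shown to compare the promoters of the neighbouring copies. Over the 150 bases before the start they are identical at 149 positions and differ at 1.
Hspa1a, chr17:34972157-34972306, minus strand: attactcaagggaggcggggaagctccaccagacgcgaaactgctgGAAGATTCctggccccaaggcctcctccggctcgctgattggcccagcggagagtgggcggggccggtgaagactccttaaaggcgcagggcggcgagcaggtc
Hspa1b, chr17:34959239-34959388, minus strand: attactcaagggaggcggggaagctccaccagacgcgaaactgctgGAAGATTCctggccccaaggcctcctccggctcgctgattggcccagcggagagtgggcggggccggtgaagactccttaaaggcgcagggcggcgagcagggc
Hspb1, chr5:135887769-135887918, plus strand: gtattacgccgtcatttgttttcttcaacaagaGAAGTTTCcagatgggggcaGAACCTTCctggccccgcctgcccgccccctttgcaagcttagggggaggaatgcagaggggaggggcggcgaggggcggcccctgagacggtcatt
Fkbp4, chr6:128438756-128438836, minus strand: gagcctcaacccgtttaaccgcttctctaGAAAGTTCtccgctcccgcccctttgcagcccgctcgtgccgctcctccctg

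Transcripts that share sequence with other genes, many of them processed pseudogenes, may lose reads in counting. The share of 100-base stretches found in another gene was 47.5% for Hsp90aa1, 42.7% for Hspb1, 31.6% for Hspa8, 31.0% for Dnajb6, 26.9% for Hspd1, 20.2% for Ptges3 and 14.8% for Dnaja1. It was 0 for Chordc1, Cryab, Hsph1, Hspa4, Dnaja2, Ahsa1, St13, Fkbp4, Hsf1 and Hsp90ab1. Genes with and without shared stretches of that length were among those called lower. The part of shared sequence in the levels was not tested.

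A wider set of chaperones and related genes outside the ER was measured beside the 40 genes. It held 61 further Hsp70 genes, J-domain proteins, co-chaperones, small heat shock proteins, mitochondrial chaperones and proteases, and heat shock factors. Of these, 56 passed the expression filter. Limma called 5 lower (8.93%, against 7.25% of all genes) and 1 higher (1.79%, against 2.9%), shares near those of all genes. The median fold change was -0.07 (log2). The ribosome-associated J-domain protein Dnajc21 was lower (-0.62, limma adjusted p = 0.0348), as were the Hsp70 and Hsp90 adaptor Tomm34 (-0.31, adjusted p = 0.0524) and the Cdc37 relative Cdc37l1 (-0.28, adjusted p = 0.0510). The remaining 2, named after their values were seen, were Dnaja4 (-0.47) and Dnajc28 (-0.37, adjusted p = 0.0998). Htra2, a mitochondrial protease, was higher (0.35, adjusted p = 0.0303). These counts depended on single animals, ranging from 0 lower without CrT-/y replicate 1 to 16 lower and 5 higher without CrT+/y replicate 3. They were 1 lower without CrT-/y replicate 2 or CrT+/y replicate 1 and 2 lower without CrT-/y replicate 3 or CrT+/y replicate 2. The difference between the lists was not tested.

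The ER chaperones, a separate folding system, were lower in 13 of 17 cases, at a median of -0.41 on the log2 scale. Those with the smallest p were the disulfide isomerases Pdia6 (-0.59, limma adjusted p = 0.00238) and Pdia4 (-0.60, adjusted p = 0.00597), the ER Hsp70 Hspa5 (-0.66, adjusted p = 0.00597) and the lectin chaperone Calr (-0.56, adjusted p = 0.00665). Of the 8 subunits of the cytosolic chaperonin TRiC, which folds actin and tubulin, Cct2 (-0.18, adjusted p = 0.0909) and Cct5 (-0.16, adjusted p = 0.0924) were lower, and the median was -0.10.

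**Figure D4:**
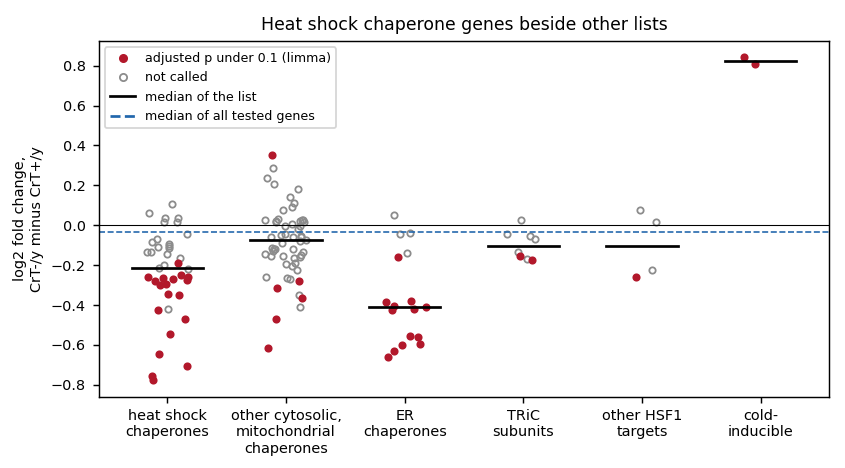
Log2 fold change, CrT-/y minus CrT+/y, of each tested gene in 6 lists. These are the 40 heat shock chaperones, the 56 other cytosolic and mitochondrial chaperones and related genes, and the 17 ER chaperones. The others are the 8 TRiC subunits, 4 other Hsf1 targets and the 2 cold-inducible genes. The list medians are -0.22, -0.07, -0.41, -0.10, -0.10 and 0.83, and the cold-inducible genes are the only list with every gene called higher.

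Genes that report on temperature and stress were measured beside the chaperones. Cirbp and Rbm3, RNA-binding proteins raised by mild cooling, were both higher in CrT-/y cortex. Cirbp measured 108, 102, 94.1 and 83.7 FPKM in CrT-/y and 71.2, 50.3 and 46.9 FPKM in CrT+/y animals (log2 fold change 0.81, limma adjusted p = 0.0303). Rbm3 measured 125, 129, 128 and 93.6 FPKM against 87.1, 58.9 and 54.9 FPKM (0.84, adjusted p = 0.0371). The groups did not overlap for either, and CrT+/y replicate 1 was the wild-type animal nearest to the CrT-/y range. Of 10 glucocorticoid targets, Sgk1 (0.43, limma adjusted p = 0.0742) and Nfkbia (0.57, adjusted p = 0.0334) were higher, 20.0% against 2.9% of all genes. Limma called 0 lower (1, Klf9, at an unadjusted p below 0.05). The median of the 10 was -0.10, and 6 lay below 0. None of 9 immediate early genes, which follow neuronal activity or handling, was called by limma in either direction (0 at an unadjusted p below 0.05), with a median of -0.12. The part of body temperature, stress or activity in the chaperone values was not tested.

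Of the 38 cell type markers tested, 3 were lower (7.89%, against 7.25% of all genes) and 1 higher (2.63%, against 2.9%). These shares were near those of all genes. The endothelial markers Flt1 (-0.40, limma adjusted p = 0.0417) and Pecam1 (-0.31, adjusted p = 0.0621) and the excitatory neuron marker Neurod6 (-0.42, adjusted p = 0.0609) were lower, and the interneuron marker Gad1 was higher (0.24, adjusted p = 0.0970). The 4 excitatory neuron markers summed to 1482 to 1611 FPKM in CrT-/y and 1499 to 1829 FPKM in CrT+/y animals, and the 3 endothelial markers to 40.5 to 54.5 FPKM against 52.9 to 63.1 FPKM. The 5 interneuron markers summed to 788 to 923 FPKM in CrT-/y and 864 to 877 FPKM in CrT+/y animals. Of these 5, 3 had fold changes above 0, Gad1 among them, and 2 had fold changes below 0. Most chaperone genes are expressed in every cell type, and the part of cell composition in their levels was not tested.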

How the data were processed

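RNA was extracted from the cerebral cortex of 4 CrT-/y and 3 CrT+/y mice and sequenced as paired ends after poly(A) library preparation. According to the study's methods and processing notes, reads were aligned with Bowtie to mm10 and normalized with Cuffnorm. Versions and annotation are not given in the sources used here. The authors deposited 1 table of FPKM values with 1 column per animal, and 0 further columns were left unused. Read totals are not in the table. Weak genes, 2521 in number, gave no common step between libraries, so depth was not derived from them. Over 21 pairs of libraries, the most frequent ratio held 1.81% to 15.0% of the weak genes above 0 in both. The study lists reads per replicate separately. That list was not used here, and no counting interval is given.

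From these FPKM, the 12988 genes averaging 1 FPKM or more across the 7 animals were tested as log2(FPKM + 0.1) with limma 3.58.1 in R 4.3.3 (variance trend, Benjamini-Hochberg over all of them, adjusted p below 0.1). This scale understates changes of low genes. The fit was tested on simulated data. The summed level of Hspa1a and Hspa1b was compared with a two-sided exact permutation test over the 35 splits. Each library was treated as 1 animal. The members and lists were chosen with earlier results of these data known. Called members are given with every animal's value and the others by role, and in each other list the called genes, or the 4 with the smallest p where over 4 were called. Shared 100-base stretches and positions came from GENCODE M21 (GRCm38). Transcript lengths were matched for 23310 genes by symbol and 666 by synonym, with 370 unmatched. Promoters came from RefSeq, with chromosome 18 left out. A few genes of the marker and target lists are not reported here.

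Replicate numbers shared by the genotypes gave no sign of pairing the animals. Same-numbered animals deviated from their group means with correlations of -0.0781, 0.046 and -0.051, which are too few values to exclude a pairing. Alternatives were other pseudocounts, filters, scalings and variance models, a transcript length correction, a replicate block, and leaving out each animal.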

Additional observations from a re-analysis of the deposited data

Results flagged for a closer look

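Of 71 chaperone and related genes examined in the CrT-/y group, 8 had 1 animal far from the other 3, its gap to the nearest of them taking up most of the group's range (Dixon's test at the 95% level). Chance alone gives about 1 in 20. Hspd1 was 74.99 FPKM in CrT-/y replicate 0 against 71.35 to 71.67 FPKM in the others, and Dnajc5 was 101.2 FPKM in the same animal against 96.01 to 96.75 FPKM. Stip1 was 49.45 FPKM in CrT-/y replicate 1 against 54.55 to 55.43 FPKM. In CrT-/y replicate 2, Hsf2 was 9.761 FPKM against 9.051 to 9.121 FPKM, and Dnajc21 was 11.73 FPKM against 11.06 to 11.12 FPKM. In CrT-/y replicate 3, Fkbp5 was 7.455 FPKM against 7.925 to 7.939 FPKM, Cdc37l1 was 34.41 FPKM against 37.64 to 38.23 FPKM, and Rbm3 was 93.64 FPKM against 124.6 to 128.8 FPKM. The wild-type group of 3 was too small for this check. Hspd1 was lower in CrT-/y cortex and its outlying animal was the one nearest to the wild-type range, whereas for Stip1 the outlying animal was the one farthest from it.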

How the results depend on the processing

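The count of chaperone genes called lower was 13 to 19 in the settings that kept all animals or used the replicate block, and 4 to 22 when each animal was left out in turn (4, 8 and 10 when CrT-/y replicates 1, 2 and 3 were dropped, 12 when CrT+/y replicate 1 was). The count called higher was 0 to 0 throughout. With no filter on low values it was 14 lower of 40, and with a mean of at least 5 FPKM it was 18 of 37. The replicate block used the 3 numbers shared by both genotypes and dropped CrT-/y replicate 0. It gave 13 lower, and 13 with the length correction added, but the numbers are not known to pair the animals. For the 61 other chaperones and related genes, 5 lower became 3 without the filter and 3 with the block and length correction. With array weights, 5 lower became 9 and 1 higher became 2. Leaving out each animal gave 0 to 16 lower and 0 to 5 higher. The summed Hspa1a and Hspa1b difference ranged from -0.77 to -0.37. Among single genes, 91 values lost their call, 6 gained one and 700 kept their side of the threshold. None changed sign while called. With 3 wild-type animals, and with read totals not used here, 7 of the 40 genes passed an unadjusted limma p of 0.05 without passing the adjusted threshold.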
